A study of Mus musculus with 2 samples.

Results

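The Hox genes of the mouse, taken here as every protein-coding gene whose symbol is Hox with a letter from a to d and a number from 1 to 13, were described in adult kidney. The rule found 39 genes among 21474 protein-coding genes and 43346 genes of all types in the deposited tables. The letter names 1 of 4 chromosomal clusters, and the number names the paralog group, a set of genes at matching places in the clusters. The Hoxa cluster spanned chromosome 6 from 52155590 to 52260880 and held 11 members. The Hoxb cluster spanned chromosome 11 from 96194316 to 96368256 and held 10. The Hoxc cluster (chromosome 15, 102921103 to 103036852) and the Hoxd cluster (chromosome 2, 74668310 to 74765142) held 9 each, all on GRCm38.

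Hox genes encode homeodomain transcription factors that give cells of the embryo a position along the axis from head to tail. Genes with low numbers are active toward the head and genes with high numbers toward the tail, in the order in which they lie along the chromosome. In the embryonic kidney the paralogs of group 11 act together in the mesenchyme that forms nephrons. Many Hox genes stay active in adult organs in a pattern that reflects where the organ arose.

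Kidney tissue of C57BL/6J mice, an inbred strain, was taken at 8 weeks of age. The 2 libraries, replicate 1 and replicate 2, form 1 group, for which the labels name no treatment or altered allele, and each was pooled from littermates of both sexes. Both carry the same donor label, and their health state is given as unknown. Strand-specific paired reads of 76 nt came from poly-A RNA of over 200 nt, with ribosomal RNA depleted and spike-ins added. With no other group, the levels below are a description, and any test sets the reads of 1 library against those of the other and measures only the spread between these libraries. In bulk tissue, fewer cells of a type and less RNA per cell cannot be told apart.

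The gene tables held 67252609 expected counts (estimated fragments per gene) in replicate 1 and 87330097 in replicate 2. All 8 kidney markers were detected, with mean levels between 24.7 TPM (a level per length, scaled to the same sum in each library) for Nphs1 of podocytes and 5069 TPM for Slc34a1 of the proximal tubule. All 5 fat markers were also detected, with a summed level of 611 TPM in replicate 1 and 591 TPM in replicate 2. Whether fat tissue carried part of the Hox levels was not tested. The libraries stood apart in genes of further tissues. The summed level of 5 adrenal cortex markers was 51.9 TPM in replicate 1 and 0.73 TPM in replicate 2. For 5 skeletal muscle markers it was 2.14 and 664 TPM, and for 6 lymphocyte markers 4.53 and 40.0 TPM, in the same order of replicates. None of the 10 adrenal and muscle markers and 2 of the 6 lymphocyte markers reached 1 TPM in both libraries. Each Hox value is therefore given for each library.

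The promoter windows of the members differed widely in base composition. The RefSeq table for GRCm38.p6 gave 24 windows for 22 of the 39 genes, each of 300 bases, with 250 before the start and 50 after it. The 4 printed here were chosen after their values were seen, as members at almost no RNA (Hoxa13 and Hoxd13) and members among the highest (Hoxb8 and Hoxd8). Each is written 5′ to 3′ on the strand of the gene, and capitals mark CG dinucleotides.
Hoxa13, chr6:52260831-52261130, minus strand: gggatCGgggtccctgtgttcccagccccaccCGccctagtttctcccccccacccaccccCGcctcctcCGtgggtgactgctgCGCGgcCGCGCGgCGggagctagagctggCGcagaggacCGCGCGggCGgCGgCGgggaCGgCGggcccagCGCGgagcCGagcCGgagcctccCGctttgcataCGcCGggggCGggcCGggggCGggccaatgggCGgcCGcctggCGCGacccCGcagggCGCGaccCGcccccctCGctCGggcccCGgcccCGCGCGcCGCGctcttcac
Hoxd13, chr2:74667975-74668274, plus strand: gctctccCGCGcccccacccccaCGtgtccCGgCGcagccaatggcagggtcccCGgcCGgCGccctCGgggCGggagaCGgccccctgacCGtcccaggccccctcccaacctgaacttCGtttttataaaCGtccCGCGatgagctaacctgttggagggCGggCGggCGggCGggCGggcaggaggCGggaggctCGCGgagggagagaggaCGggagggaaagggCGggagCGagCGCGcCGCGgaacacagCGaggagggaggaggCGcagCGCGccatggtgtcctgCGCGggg
Hoxb8, chr11:96281655-96281954, plus strand: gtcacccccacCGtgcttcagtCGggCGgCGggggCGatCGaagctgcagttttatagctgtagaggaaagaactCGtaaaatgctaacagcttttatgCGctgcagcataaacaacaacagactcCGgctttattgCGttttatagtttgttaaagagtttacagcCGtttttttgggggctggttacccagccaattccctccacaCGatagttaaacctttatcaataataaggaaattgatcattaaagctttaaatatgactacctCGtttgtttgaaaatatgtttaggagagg
Hoxd8, chr2:74704365-74704664, plus strand: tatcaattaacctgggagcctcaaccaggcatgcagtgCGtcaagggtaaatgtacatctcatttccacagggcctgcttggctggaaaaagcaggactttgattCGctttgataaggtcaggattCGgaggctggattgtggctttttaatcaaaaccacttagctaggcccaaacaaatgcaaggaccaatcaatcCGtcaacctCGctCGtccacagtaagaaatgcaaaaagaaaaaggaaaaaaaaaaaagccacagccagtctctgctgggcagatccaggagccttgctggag
The window of Hoxa13 held 45 CG dinucleotides and that of Hoxd13 held 37, against 13 for Hoxb8 and 6 for Hoxd8. The median over Hox windows was 14.5, and 20 of the 24 lay above the median of 7 over all 32851 windows. The 5 windows of Hox genes below 0.1 TPM in mean level held 10 to 45 (median 29), and the 8 windows of Hox genes at 10 TPM or more in both libraries held 4 to 21 (median 10.5). The ranges overlapped. The motif TATAAA was found in 4 Hox windows and in 13.6% of all windows, read on both strands. TAATTA, a core bound by many homeodomains, was found in 2 Hox windows and in 5.29% of all windows. TGATNNAT, a form bound by Pbx and Hox proteins together, was found in 4 Hox windows and in 8.85% of all windows. Windows follow the RefSeq start, which for 6 of the 24 lies over 300 bases inside the span of the gene in GENCODE M21. These are windows of Hoxa7, Hoxa9, Hoxa10, Hoxc4, Hoxd4 and Hoxd11, and 4 of them are among the 8 windows of the higher genes. The other 4 of those 8 had a median of 12.5 CG dinucleotides.

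Of the 39 Hox genes, 29 (74.4%) reached 1 TPM in both libraries and are called detected. Among all protein-coding genes the share was 57.2%, or 12273 of 21474. The detected members were 9 of 11 in the Hoxa cluster, 8 of 10 in Hoxb, 6 of 9 in Hoxc and 6 of 9 in Hoxd. By place in the clusters they were 9 of the 12 anterior genes (groups 1 to 4), all 11 central genes (groups 5 to 8) and 9 of the 16 posterior genes (groups 9 to 13). The undetected genes lay at the ends of the clusters, among them Hoxb1 and Hoxd1 at one end, and Hoxc11 and all members of groups 12 and 13 at the other.

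**Figure D1:**
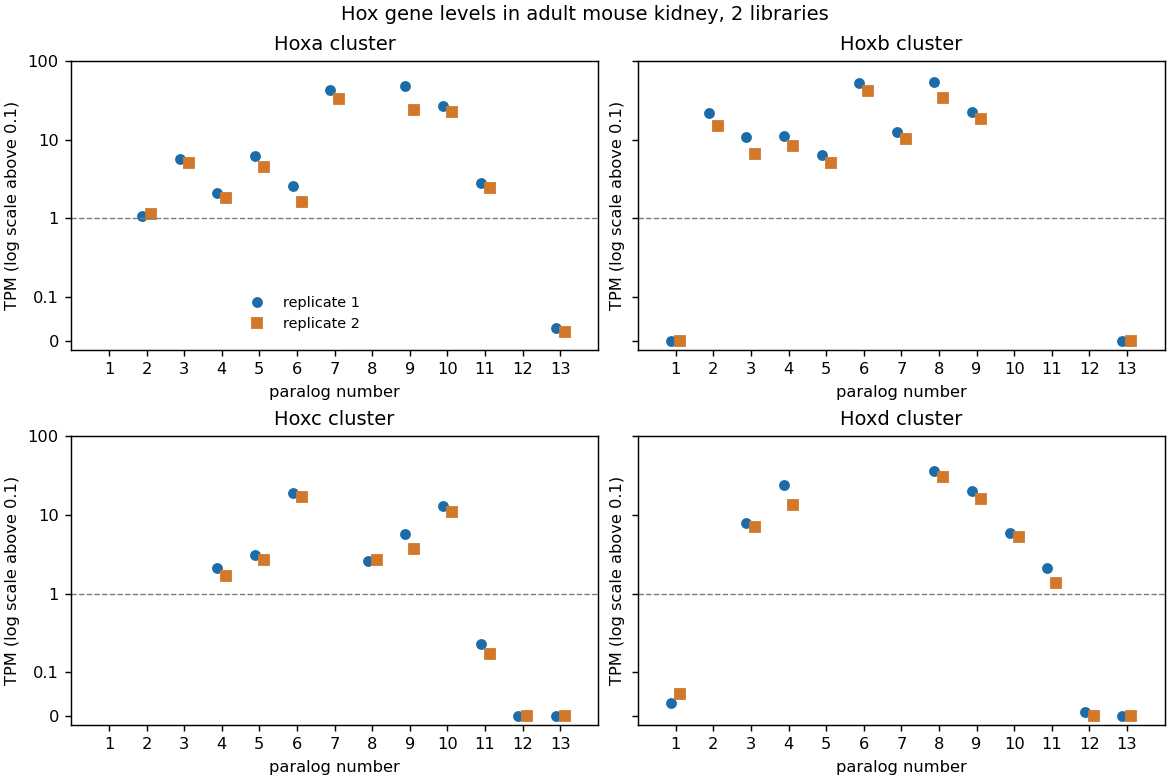
TPM of Hox genes in replicate 1 (circles) and replicate 2 (squares) against paralog number, with a panel for each cluster and the 1 TPM threshold as a dashed line. The axis is logarithmic above 0.1 TPM and linear below. Genes of groups 2 to 10 sit above the line in every cluster, and groups 12 and 13 sit at or near 0.

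The levels were moderate. Detected Hox genes had a median mean level of 8.73 TPM, against 13.3 TPM for all detected protein-coding genes, and 11 of the 29 lay above 13.3 TPM. The 39 genes together summed to 473 TPM in replicate 1 and 348 TPM in replicate 2, which was 0.0553% and 0.0425% of the TPM of protein-coding genes. In both libraries 13 Hox genes reached 10 TPM. The highest 5 by mean were Hoxb6, Hoxb8, Hoxa7, Hoxa9 and Hoxd8, and each overlapped its neighbour in that order within the range of the libraries. Hoxd8 did not overlap Hoxa10, the next gene, but Hoxa9 did, so ranges pooled over libraries did not set these 5 apart. Within each library the same 5 were the highest, though in replicate 2 Hoxa9 had 23.8 TPM and Hoxa10 22.5 TPM. Of 28 neighbouring pairs among detected genes, 23 overlapped in this way, so the order within a stretch of the ranking is not resolved by these ranges. These ranges pool both libraries. Some overlapping pairs kept their order in each library, such as Hoxb8 above Hoxa7, and others swapped, such as Hoxb6 and Hoxb8. The lists of the 10 highest genes shared 9 members between libraries, and Spearman's rho over the 39 genes was 0.992, which describes genes of a pair of libraries and is not a test.

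The Hoxb cluster held the largest share of summed Hox TPM, 40.4% ± 0.401 (SD, n = 2). Hoxa held 28.7% ± 1.11, Hoxd 20.7% ± 0.517 and Hoxc 10.3% ± 0.991. Central genes held 51.3% ± 1.69, posterior genes 30.6% ± 0.900 and anterior genes 18.1% ± 0.791. In each library the order of the clusters and of the classes was the same.

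**Figure D2:**
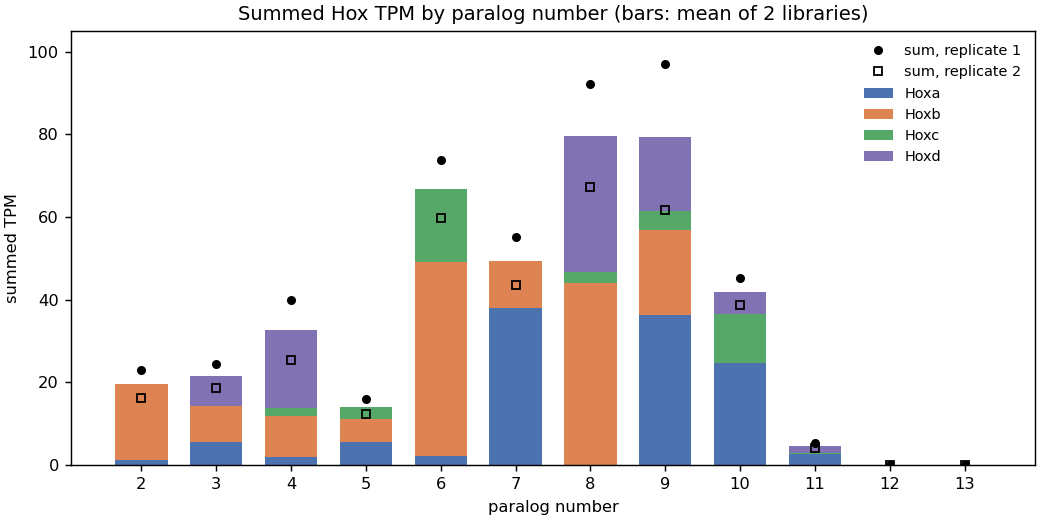
Summed TPM of the Hox genes of each paralog number from 2 to 13. Bars are means of both libraries, coloured by cluster, and points are the sums in replicate 1 (filled) and replicate 2 (open). Groups 8 and 9 are highest, at 79.7 and 79.3 TPM in mean, and groups 12 and 13 lie at 0.005 and 0.025 TPM.

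Summed over clusters, the level was higher at each number from group 2 to group 6, except at group 5, and lower from group 10 on. Group 6 summed to 73.9 TPM in replicate 1 and 59.9 TPM in replicate 2, group 8 to 92.2 and 67.3 TPM, and group 9 to 97.0 and 61.6 TPM. Group 10 summed to 45.2 and 38.6 TPM, whereas group 11 summed to 5.19 and 3.99 TPM. No 1 cluster supplied the leading gene throughout, since Hoxb led groups 2, 3, 5, 6 and 8, Hoxa led 7, 9, 10 and 11, and Hoxd led group 4. In groups 3, 5 and 8 the leader overlapped the next gene in the range of the libraries. The leaders of groups 5 and 8 were higher than the next gene in both libraries, and that of group 3 only in replicate 1.

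Among anterior genes, which pattern the hindbrain, pharyngeal arches and neck in the embryo, the first group held genes with almost no RNA. Hoxb1, which sets the identity of a hindbrain segment, had 0 counts in both libraries. Hoxd1 had 3 counts in replicate 1 and 6 in replicate 2. Hoxa2, a gene of arch identity, lay just over the threshold, at 1.08 TPM in replicate 1 and 1.14 TPM in replicate 2.

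Hoxb2, the neighbour of the silent Hoxb1, was the second highest anterior gene, at 21.9 TPM in replicate 1 and 15.1 TPM in replicate 2. Read against the limit of 3 counts that a count of 0 allows in a library, Hoxb2 was at least 481-fold higher than Hoxb1 in replicate 1 and 462-fold higher in replicate 2. Hoxd4 had the highest mean of the class, at 24.3 TPM in replicate 1 and 13.5 TPM in replicate 2, so the ranges of Hoxd4 and Hoxb2 overlapped. Hoxb4, known for expanding blood stem cells, had 11.3 and 8.37 TPM. Hoxb3 had 10.8 and 6.64 TPM, Hoxd3 7.94 and 7.0 TPM, and Hoxa3, needed for the thymus and parathyroid, 5.71 and 5.06 TPM. These 3 genes of group 3 had closer levels than the members of group 4, where Hoxa4 had 2.12 and 1.82 TPM and Hoxc4 2.11 and 1.68 TPM.

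Central genes, which pattern the trunk, were detected throughout, and Hoxa, Hoxb and Hoxc each held a steep step between neighbours here. Hoxa7 had 42.5 TPM in replicate 1 and 33.3 TPM in replicate 2, against 2.59 and 1.60 TPM for its neighbour Hoxa6. The step was 16.4-fold in replicate 1 and 20.8-fold in replicate 2, across 5769 bases between the genes. Hoxb6 had 52.3 and 41.5 TPM, which was 8.12-fold and 8.17-fold above Hoxb5 (6.44 and 5.08 TPM). Hoxc6 had 19.0 and 16.8 TPM, which was 6.07-fold and 6.26-fold above Hoxc5 (3.13 and 2.68 TPM). These steps were alike in both libraries.

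Levels within the class did not climb evenly. Hoxb7, whose promoter is widely used to drive transgenes in the ureteric bud and collecting duct, had 12.7 TPM in replicate 1 and 10.3 TPM in replicate 2. It lay between Hoxb6 and Hoxb8, both far higher, and Hoxb6 exceeded it by 4.11-fold and 4.03-fold. Hoxb8, studied in microglia and in grooming, had 53.9 TPM in replicate 1 and 34.3 TPM in replicate 2. Hoxd8 had 35.7 and 30.3 TPM, while Hoxc8, a gene of brachial motor neurons, had 2.59 and 2.66 TPM. Hoxc6 exceeded Hoxc8 by 7.34-fold in replicate 1 and 6.31-fold in replicate 2, so it stood above its neighbours on both sides. Hoxa5, needed for lung maturation, had 6.23 and 4.55 TPM. Hoxa7 was the highest central gene of its cluster, and Hoxd8 is the only central gene of the Hoxd cluster.

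Posterior genes, which pattern the lumbar and sacral body, limbs and genital tract, were highest in groups 9 and 10 and fell beyond them. Where the steepest fall lay differed between clusters. Hoxa9, known as a driver of leukaemia, had 48.6 TPM in replicate 1 and 23.8 TPM in replicate 2. Hoxb9 had 22.7 and 18.4 TPM, Hoxd9 20.01 and 15.8 TPM, and Hoxc9 5.64 and 3.63 TPM. Hoxa10, needed in the uterus, had 26.5 and 22.5 TPM. Hoxc10 had 12.9 and 10.9 TPM and Hoxd10 5.85 and 5.21 TPM, both genes of lumbar motor neurons.

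The group 11 genes, which the embryonic kidney requires together, were low. Hoxa11 had 2.84 TPM in replicate 1 and 2.44 TPM in replicate 2, and Hoxd11 had 2.12 and 1.38 TPM. Hoxc11 had 0.23 and 0.17 TPM, on 22 and 23 counts. Hoxa10 exceeded Hoxa11 by 9.33-fold in replicate 1 and 9.23-fold in replicate 2, and Hoxc10 exceeded Hoxc11 by 56.0-fold and 64.0-fold. In the Hoxd cluster this step was smaller, since Hoxd10 exceeded Hoxd11 by only 2.76-fold and 3.78-fold.

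Beyond group 11 there was almost no RNA. Hoxa13, needed for digits and the genitourinary tract, had 2 counts in each library. Hoxd13, which shares these roles, had 0 counts in both. Hoxd12, a limb gene, had 1 count in replicate 1 and 0 in replicate 2. Hoxb13, a gene of prostate and tail, and Hoxc12 and Hoxc13, the last needed for hair, had 0 counts in both libraries. Hoxb9 was at least 814-fold higher than Hoxb13 in replicate 1 and 916-fold in replicate 2, with Hoxb13 set at 3 counts in each library. The limit of 3 counts that a count of 0 allows corresponds to 0.0446 CPM (counts scaled to the library total) in replicate 1 and 0.0344 CPM in replicate 2.

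**Figure D3:**
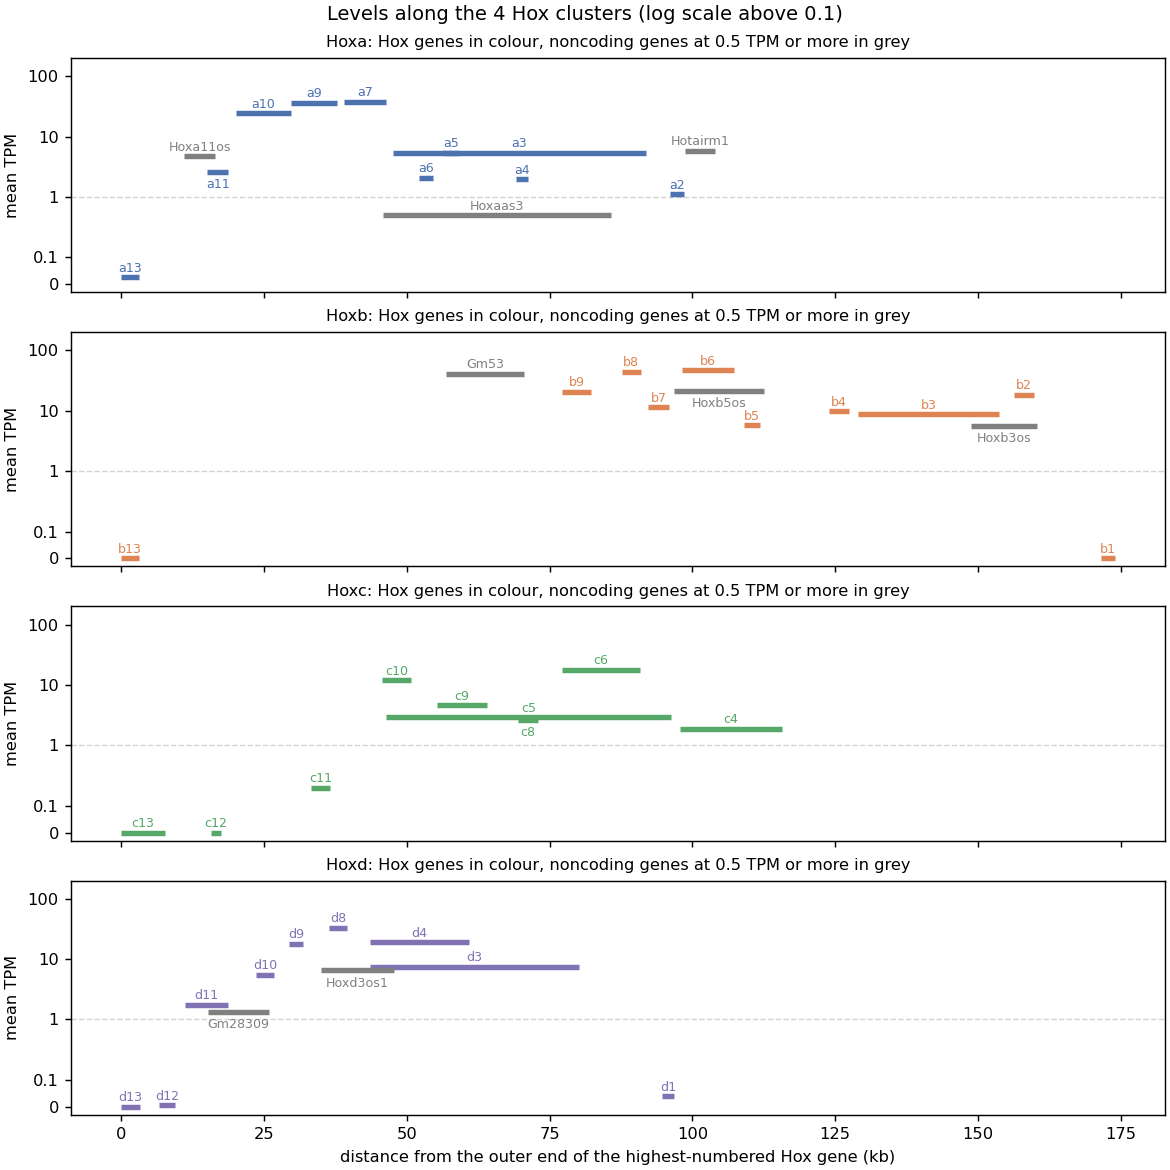
Mean TPM of Hox genes (coloured bars) and of noncoding genes at 0.5 TPM or more (grey bars) along each cluster, against distance in kb from the outer end of the highest-numbered Hox gene. Bar length is the span of the gene. The vertical axis is logarithmic above 0.1 TPM, and the dashed line marks 1 TPM. Both ends of Hoxb and Hoxd are near 0, and in Hoxa and Hoxc the end with the highest numbers is.

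The clusters also held 42 noncoding genes, of which 7 were detected and 23 had 0 counts in both libraries. The detected share over all noncoding genes was not computed, so whether 7 of 42 is low or high for such genes is not known. The 6 microRNA genes were at 0, in libraries limited to RNA over 200 nt. Gm53, between Hoxb13 and Hoxb9, was the highest, with 46.7 TPM in replicate 1 and 34.9 TPM in replicate 2. Its level was close to those of the top Hox genes, although Hoxb13 on its other side had no counts. Hoxb5os, antisense over Hoxb5 and Hoxb6, had 24.3 and 18.7 TPM. Hoxd3os1, antisense at Hoxd8, had 6.47 and 6.57 TPM, and Hoxb3os had 6.26 and 4.95 TPM. Hotairm1, in the Hoxa cluster, had 6.59 and 5.01 TPM on 75 and 92 counts. Hoxa11os, known as an antisense RNA opposite Hoxa11, had 5.60 and 3.90 TPM. Gm28309 had 1.20 and 1.47 TPM, and Hoxaas3 0.47 and 0.53 TPM. The span of Gm28309 overlaps Hoxd11 on the same strand. The deposited SD of the count was the same for both genes, 3.31 in replicate 1 and 4.06 in replicate 2. How reads were split between them is therefore uncertain. Hotair, the noncoding RNA of the Hoxc cluster, had 3 and 0 counts. The sources used here do not state whether counting used strand. Whether reads of a Hox gene and of its antisense partner were kept apart is therefore not known.

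Genes on either side of the clusters were mostly active. Of 24 flanking genes, 3 at each end, 19 were detected, beside 57.2% of all protein-coding genes. They lay between 8.75 kb (Evx2) and 910 kb (Nfe2l2) from their cluster, so many were not close to it. Evx1, the homeobox gene beyond Hoxa13, had 1 count in replicate 1 and 0 in replicate 2, and Evx2, beyond Hoxd13, had 0 counts in both. The nearest genes beyond Hoxb13 were also near 0, since Calcoco2 had 0 counts in both libraries and Ttll6 had 0.04 TPM in both. So 3 of the 4 clusters had silent neighbours past their highest numbers.

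The next genes out were active. Beside Hoxa, Hibadh, a mitochondrial enzyme of valine breakdown, had 195 TPM in replicate 1 and 221 TPM in replicate 2, and Tax1bp1 had 38.3 and 41.6 TPM. On the side of the lower numbers, Skap2 had 8.89 and 11.4 TPM, Cbx3 4.22 and 7.17 TPM, and Snx10 1.94 and 2.70 TPM. Genes of an ATP synthase subunit family were among the flanking genes of 3 clusters and had the highest levels of all flanking genes. Atp5g1, 119 kb from Hoxb, had 1477 and 1357 TPM. Atp5g2, 249 kb from Hoxc, had 839 and 686 TPM, and Atp5g3, 757 kb from Hoxd, had 1180.3 and 1194 TPM.

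Beside Hoxd, Mtx2, which encodes a mitochondrial outer membrane protein, had 52.6 TPM in replicate 1 and 44.2 TPM in replicate 2, although Hoxd1 next to it had 3 and 6 counts. Lnpk, on the other side, had 2.72 and 1.73 TPM. Nfe2l2, a regulator of the oxidative stress response, had 45.9 and 38.4 TPM, and Hnrnpa3 had 12.5 and 22.5 TPM. Beside Hoxc all 6 genes were detected. Atf7 had 60.8 and 55.9 TPM, Calcoco1 44.3 and 39.7 TPM, and Hnrnpa1 30.4 and 37.7 TPM. Cbx5, a heterochromatin protein, had 14.4 and 17.7 TPM, and Smug1, a DNA repair enzyme, had 7.46 and 6.26 TPM. Beside Hoxb, Cbx1 had 13.8 and 12.4 TPM and Snx11 10.2 and 9.08 TPM. Skap1, an adaptor of T cells, had 0.80 TPM in replicate 1 and 2.20 TPM in replicate 2 and was the 1 flanking gene of 24 called different between libraries (adjusted p = 6.25e-15, exact binomial test), where 8.21% of all genes tested were called. Its ratio was 0.308 in TMM-scaled counts, and the lymphocyte markers were also higher in replicate 2, with their part not tested.

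Hox proteins bind DNA with partners of the TALE class. All 9 listed genes of that class were detected, beside 57.2% of all protein-coding genes. Pbx2 had 39.9 TPM in replicate 1 and 37.3 TPM in replicate 2. Meis2 had 21.9 and 21.3 TPM. Pknox1 had 12.4 and 10.7 TPM, Pknox2 6.66 and 4.83 TPM, and Pbx3 5.45 and 3.72 TPM. Meis1 had 4.82 and 4.12 TPM, Meis3 5.11 and 2.49 TPM, and Pbx4 3.01 and 2.41 TPM. All 9 lay within the range of the detected Hox genes. None of the 8 Cdx, ParaHox and Evx genes, the homeobox relatives and upstream regulators of Hox genes, was detected. Cdx4 had 7 and 8 counts, and Cdx1, Cdx2, Pdx1, Gsx1, Gsx2 and Evx2 were at 0 in both libraries.

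Polycomb proteins keep Hox genes silent and Trithorax proteins keep them active. All 17 listed Polycomb genes were detected, beside 57.2% of all protein-coding genes. So were all 9 of a joint list of Trithorax genes and histone H3K27 demethylases. The highest Polycomb genes were Phc2 (53.5 TPM in replicate 1 and 42.7 TPM in replicate 2), Cbx6 (47.9 and 32.7 TPM), Pcgf2 (43.4 and 35.6 TPM) and Ezh1 (37.3 and 29.6 TPM). The highest Trithorax genes were Men1 (48.2 and 32.3 TPM), Kmt2b (24.4 and 17.7 TPM), Wdr5 (22.9 and 19.0 TPM) and Rbbp5 (12.3 and 14.1 TPM). Retinoic acid is a signal that induces Hox genes in the embryo. Beside the 57.2% of all protein-coding genes, 9 of 14 listed retinoic acid genes were detected. They were led by the receptors Rxra (72.02 and 69.8 TPM), Rxrb (44.7 and 30.7 TPM), Rarg (19.6 and 13.8 TPM) and Rara (15.1 and 11.9 TPM). Under 1 TPM in both libraries were Crabp2 (0.72 and 0.58 TPM), Crabp1 (0.22 and 0.71 TPM), Cyp26a1 (0.21 and 0.13 TPM) and Cyp26c1 (0.17 and 0.03 TPM).

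The embryonic partners and targets of the group 11 genes were mostly low, like those genes themselves. Pax2 had 19.9 TPM in replicate 1 and 19.7 TPM in replicate 2, and Itga8, an integrin, had 6.59 and 6.40 TPM. Both were detected. Eya1 had 0.23 and 0.84 TPM, Gdnf, the signal for ureteric branching, 0.21 and 0.08 TPM, and Six2, of nephron progenitors, 0.01 and 0.07 TPM on 1 and 9 counts. Of the 6, Eya1, Gdnf and Six2 were called different between libraries by the exact binomial test, beside 8.21% of all genes tested. They rested on few counts, with 27 and 93 for Eya1 and 38 and 20 for Gdnf.

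Between libraries, 31 Hox genes had the 10 counts in sum needed for testing, and none was called different at an adjusted p below 0.05 and a ratio of 2-fold (two-sided exact binomial test on TMM-scaled counts, Benjamini-Hochberg over 18723 genes). Among all genes tested, 8.21% were called. With no minimum on the ratio, 15 of the 31 (48.4%) passed, against 57.5% of all genes tested, and 15 also had an unadjusted p below 0.05. With DESeq2 size factors and with library totals the count called was again 0, while 15 and 20 passed with no minimum. Of the 15, 14 were higher in replicate 1 and Hoxb8 was lower. The median ratio of replicate 1 over replicate 2 was 1.11 for the tested Hox genes and 0.988 for all tested genes. Its p-values and intervals cover counting error only.

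**Figure D4:**
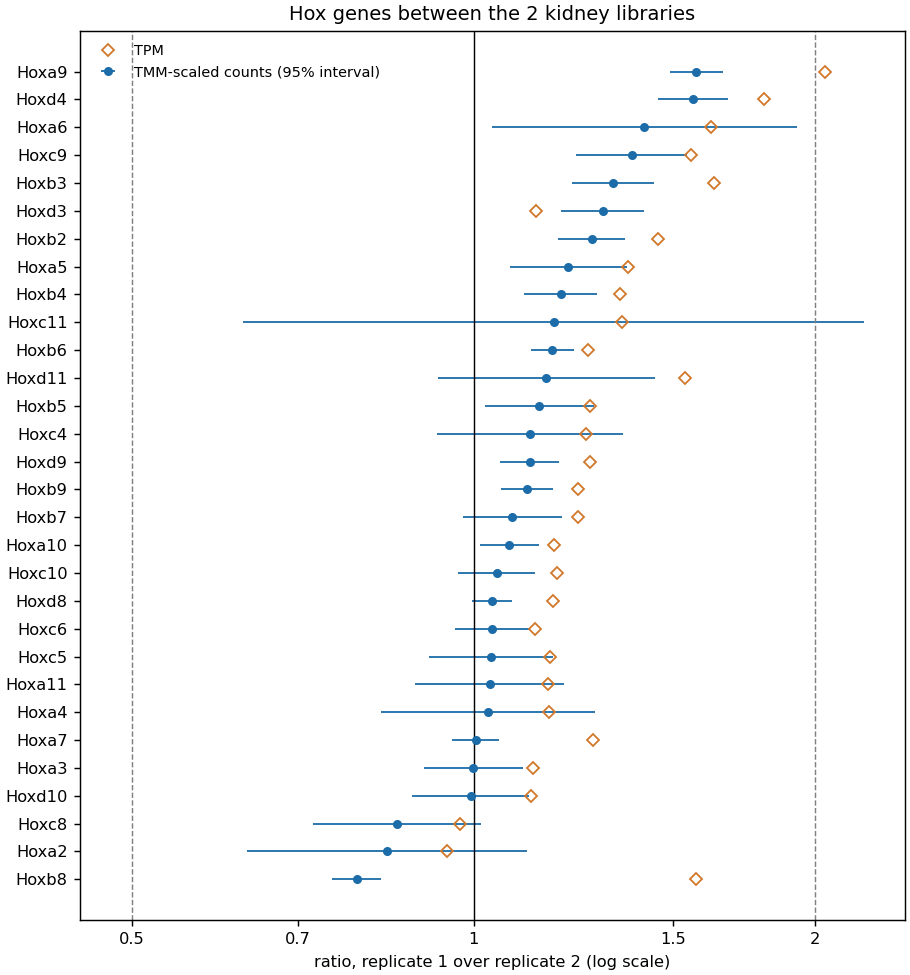
Ratio of replicate 1 over replicate 2 for 30 of the 31 tested Hox genes, from TMM-scaled counts (filled points, with 95% exact binomial intervals) and from TPM (open diamonds), on a logarithmic axis with dashed lines at 0.5 and 2. Count ratios run between 0.789 for Hoxb8 and 1.57 for Hoxa9, and the diamond of Hoxb8 lies on the other side of 1 from its count ratio.

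Hoxa9 and Hoxd4 differed most upward. Hoxa9 had 2990 counts in replicate 1 and 2343 in replicate 2, a TMM-scaled ratio of 1.57 (95% interval 1.49 to 1.66, adjusted p = 1.45e-59 by the exact binomial test). Its TPM differed by 2.04-fold, just past the 2-fold line that the count ratio did not reach. Hoxd4 had 1746 counts in replicate 1 and 1377 in replicate 2, a ratio of 1.56 (1.45 to 1.68). Smooth muscle markers also differed in that direction, with 4 of 4 detected and a summed level of 238 TPM in replicate 1 and 99.1 TPM in replicate 2. The 5 stroma markers summed to 219 and 179 TPM, and the 5 urothelium markers to 68.5 and 42.7 TPM, all detected. The 4 principal cell markers summed to 1231 and 951 TPM, the 5 endothelium markers to 647 and 540 TPM and the 5 fat markers to 611 and 591 TPM, all again detected. By TMM-scaled counts, all members of the smooth muscle, stroma, urothelium, principal cell and adrenal cortex lists had a ratio above 1, as had 7 of 8 kidney markers. It was above 1 for 1 of 5 endothelium and 3 of 5 fat markers, and for no skeletal muscle or lymphocyte marker. The part of these cell types in the Hox differences was not tested. In TPM, 27 of 29 detected Hox genes were higher in replicate 1, as were 72.4% of detected protein-coding genes, and the median TPM ratios were 1.26 and 1.14.

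Hoxb8 gave opposite directions on the 2 scales. It had 2564 counts in replicate 1 and 4004 in replicate 2, a TMM-scaled ratio of 0.789 (95% interval 0.750 to 0.829, adjusted p = 3.00e-20 by the exact binomial test), yet its TPM ratio was 1.57. TPM is a level per length, and the deposited mean length of the gene's transcripts was 1091 bases in replicate 1 and 1766 bases in replicate 2. The short transcript Hoxb8-202 (664 bases) held 78.3% of the gene's TPM in replicate 1 and 44.1% in replicate 2. The long transcript Hoxb8-201 (2635 bases) held 21.7% and 55.9%. Hoxa3 and Hoxd10 also had ratios on opposite sides of 1, with count ratios of 0.999 and 0.994 and TPM ratios of 1.13 and 1.12. Their mean transcript lengths hardly differed, at 2511.5 and 2511.3 bases for Hoxa3 and 1816 bases in both libraries for Hoxd10. TPM ratios ran higher in general. The median was 1.14 for detected protein-coding genes, against 0.988 in TMM-scaled counts for all tested genes.

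**Figure D5:**
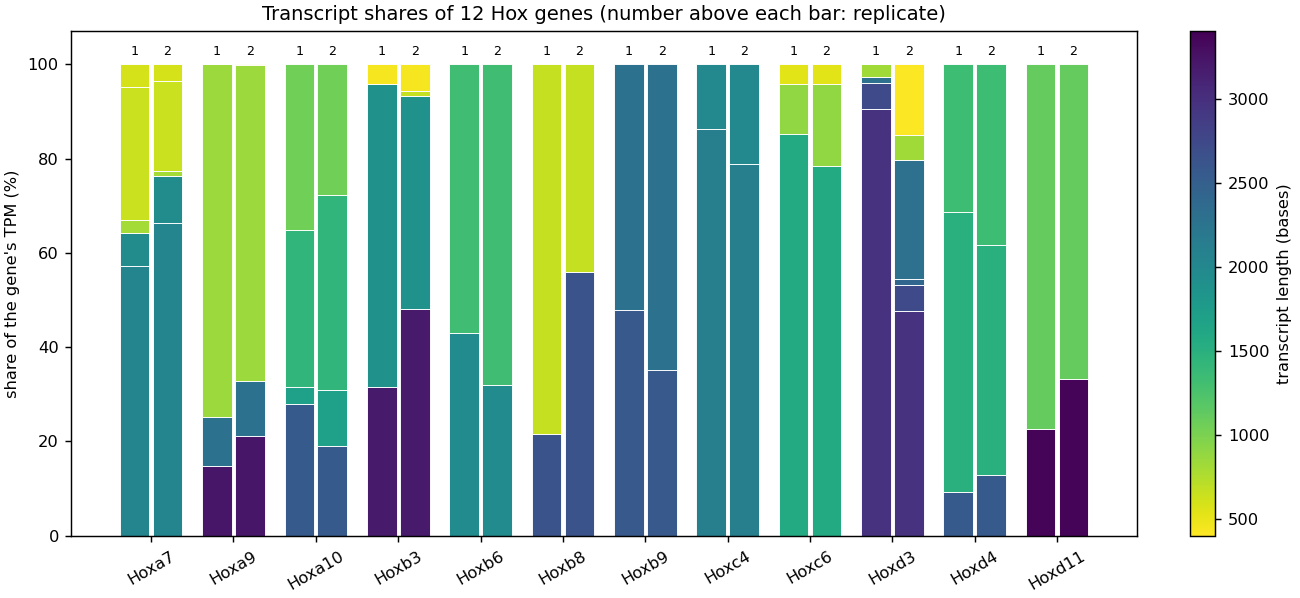
Share of each transcript in the TPM of its gene, in percent, for the 12 detected Hox genes with more than 1 transcript over 10%, with replicate 1 left of replicate 2. Colour gives transcript length in bases. The share of the short transcript of Hoxb8 is 78.3% in replicate 1 and 44.1% in replicate 2, and Hoxd3 also shifts.

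Of the 29 detected genes, 8 had 1 listed transcript and 12 had more than 1 transcript over 10%. The leading transcript differed between libraries for Hoxa10, Hoxb3 and Hoxb8. In Hoxa10, Hoxa10-204 led in replicate 1 with 35.1% and held 27.7% in replicate 2, and it is not annotated as protein-coding. In Hoxb3, transcript Hoxb3-201 held 64.2% in replicate 1 and 45.2% in replicate 2, and in Hoxd3, transcript Hoxd3-203 held 90.5% and 47.7%. Hoxd3 also had the largest deposited SD of a count, at 4.34% of the estimate, and its span overlaps Hoxd4 and the gene Gm28230 (5.95 and 3.63 TPM), so the split of reads among them is uncertain. Gm28308 overlaps Hoxa3 in the same way, at 2.20 TPM in replicate 1 and 0.52 TPM in replicate 2. Hoxa3 also spans Hoxa4, Hoxa5 and Hoxa6, and Hoxc5 spans Hoxc6, Hoxc8 and Hoxc9. For 30 of the 39 members the deposited SD was 0 in both libraries.

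Other members kept their leading transcript. In Hoxa9 the short Hoxa9-202 (851 bases) led with 74.8% in replicate 1 and 67.0% in replicate 2. In Hoxb6, Hoxb6-201 led with 57.0% and 68.1%, and in Hoxb9, Hoxb9-202 led with 52.1% and 64.8%. In Hoxd4, Hoxd4-202 led with 59.4% and 48.7%, and Hoxd4-203, which is not annotated as protein-coding, held 31.4% and 38.3%. In Hoxa7 the leading transcript, Hoxa7-205, is annotated as a target of nonsense-mediated decay and held 57.3% of TPM in replicate 1 and 66.2% in replicate 2. Its 24.4 and 22.1 TPM therefore form the larger part of the Hoxa7 level.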

How the data were processed

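Gene and transcript tables of 2 libraries of adult kidney were used. Per the text records deposited beside them, they are on mm10 with GENCODE M4. Which aligner, quantification program and strand setting were used is not given in the sources used here. Each gene and transcript has an expected count as deposited, and, per the file headers, TPM, FPKM and posterior mean TPM and counts. The SD of each count is a deposited signal of the quantification, and the share of each transcript is a deposited percent.

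Gene names and positions came from GENCODE M21 on GRCm38, and promoter windows from RefSeq. CPM is the expected count scaled to the library total. Library sizes leave out spike-ins and rows that name no gene. Libraries were scaled by TMM in edgeR 4.0.16 under R 4.3.3 (factors 1.03 and 0.974), with DESeq2 1.42.0 size factors as an alternative. Expected counts were rounded and compared with a two-sided exact binomial test (scipy 1.17.1) for genes with 10 counts in sum. With 1 library for each replicate, no dispersion can be fitted. Intervals are 95% exact binomial, and a count of 0 was read as at most 3 counts.

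Members and gene lists were chosen with earlier results of these data known. Named are all Hox, TALE, Cdx, ParaHox, Evx, flanking and Hox11 partner genes, cluster noncoding genes at 0.5 TPM or more, and in the other lists the 4 highest and those under 1 TPM in both libraries. Some genes that this rule would name are not reported here. Hotair, Gm28308 and Gm28230 were named outside this rule. Alternatives changed the threshold, unit, scaling, filter and library. The junction and contig tables on mm9 were not used here.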

Additional observations from a re-analysis of the deposited data

How the results depend on the processing

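Of 60 alternatives computed, 52 left the result unchanged by the rule used, and 8 moved it. A count was held unchanged within a fixed fold of the main value, and a share within the SD of the libraries. Leaving out 1 of 2 libraries cannot exceed that SD, and FPKM shares follow TPM shares within a library. Those alternatives could not move a share, so the 52 are not a measure of robustness. With no minimum on the ratio, 15 Hox genes differed between libraries, 14 of them higher in replicate 1. By a TPM ratio of 2-fold with no test, 1 gene (Hoxa9) differed. Shares of expected counts, which depend on transcript length, were 25.5% for Hoxa, 38.8% for Hoxb and 25.1% for Hoxd, and 20.6% for anterior, 47.9% for central and 31.6% for posterior genes. On that scale Hoxa and Hoxd were nearly level. With each library alone, Hoxa ran between 27.9% and 29.4%, Hoxb between 40.1% and 40.6%, Hoxc between 9.64% and 11.0% and Hoxd between 20.3% and 21.02%. The classes ran between 17.5% and 18.7% (anterior), 50.2% and 52.5% (central) and 29.9% and 31.2% (posterior). The count of detected Hox genes ran between 24 at 2 TPM and 30 at 0.5 TPM, and was 29 in each library alone and 28 by FPKM. No paired analysis was possible because the labels give 1 group. Genes with few counts, such as Hoxc11 and Hoxd1, are limited by depth.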
